A study of Capra hircus with 8 samples.

Results

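The cytosolic ribosomal protein genes encode the proteins of the ribosome that works outside mitochondria. They were taken by name from the messenger RNA table of goat 8-cell embryos: names that start with RPL or RPS and a digit, with RPLP0, RPLP1, RPLP2 and RPSA. The ribosomal S6 kinase genes (RPS6K) and RPS19BP1 were left out, and so was RPL37A, which the authors also list among annotated long non-coding RNAs (lncRNAs). This gave 79 of the 22107 entries in the table, 47 of the large and 32 of the small ribosomal subunit. They cover 73 of the 79 proteins of a standard list of the mammalian ribosome, and 6 more are close relatives (paralogs) of standard proteins. FAU, whose product carries a ribosomal protein fused to a ubiquitin-like protein, has a name outside the rule and is described beside the others, as is RPL37A. RPL17, RPL34 and RPL41 were not analysed here.

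The embryos were of the goat, Capra hircus. Their lysate went straight into Smart-seq2, a protocol that copies polyadenylated RNA of very small samples over its full length. The 8-cell embryos formed 2 groups of 2 libraries: fertilised in vitro (IVF), and cloned by somatic cell nuclear transfer (SCNT), where an egg without its own nucleus receives that of a body cell. No other treatment, allele or donor-cell detail is given for either group. The labels do not say whether the 2 libraries of a group came from separate pools of embryos, so p-values measure only the spread between these libraries, which may be technical. Messenger RNA values of the 4-cell stage were not analysed here.

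A ribosome holds 1 copy of nearly every ribosomal protein, so cells make these proteins in matched amounts, and much of that matching happens at translation and by degrading unassembled protein. Most messages of the family begin with a terminal oligopyrimidine tract (TOP), through which the kinase complex mTORC1 and the binding protein LARP1 set their translation and stability. An egg hands a store of ribosomes and of ribosomal protein messages to the embryo, and the embryo takes over their production once its own genome is transcribed. No sequences of these genes or proteins were used here.

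Values are the deposited FPKM (fragments per 1000000 in the library, divided by feature length in kilobases), which allows levels of different genes to be set side by side. The steps between FPKM values gave back the totals behind the scaling, which lay between 27499371 and 30345379 reads per library, and the reads and feature length of each gene. The fewest reads behind a ribosomal protein gene above 0 in a library were 6, for RPL39 and RPL36A in IVF replicate 2. Genes with at least 1 FPKM numbered 8984 and 9038 with IVF and 9883 and 11025 with SCNT. All 11 measured oocyte and embryo markers reached 1 FPKM in at least 2 libraries, with summed levels of 2686 to 2899 FPKM after IVF and 3841 and 5836 FPKM after SCNT. Of 7 measured cumulus markers 3 reached that level, with sums from 20.9 to 51.2 FPKM, and INHA, AMH and FSHR were at 0 throughout. Of 10 fibroblast markers 7 did, with sums of 122 to 133 FPKM after IVF and 82.7 and 84.1 FPKM after SCNT. DCN made up most of the IVF sums, at 94.3 and 85.5 FPKM. It was the largest single part of the SCNT sums, at 33.9 and 39.5 FPKM. Among the 7, 4 had log2 differences above 0, and COL1A2, COL3A1 and VIM were higher in both SCNT libraries.

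The median level of ribosomal protein messages differed more between the libraries of each group than between the groups. Of the 79 genes, 78 reached 1 FPKM in 2 libraries or more and were tested, and RPL3L, a paralog of RPL3 best known from muscle, was at 0 in all 4. The median level of the 78 was 9.06 FPKM in IVF replicate 2, 14.3 FPKM in SCNT replicate 1, 22.5 FPKM in IVF replicate 1 and 30.8 FPKM in SCNT replicate 2. The lowest and the second highest library were thus both IVF. The median over all 10303 tested genes moved less, from 5.65 and 5.73 FPKM after IVF to 7.58 and 9.34 FPKM after SCNT, and had the SCNT libraries on top. FPKM is scaled to each library's total, so these are relative levels and not amounts per embryo or per cell. In bulk samples such as these, fewer cells with a message and less of it per cell cannot be told apart.

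**Figure D1:**
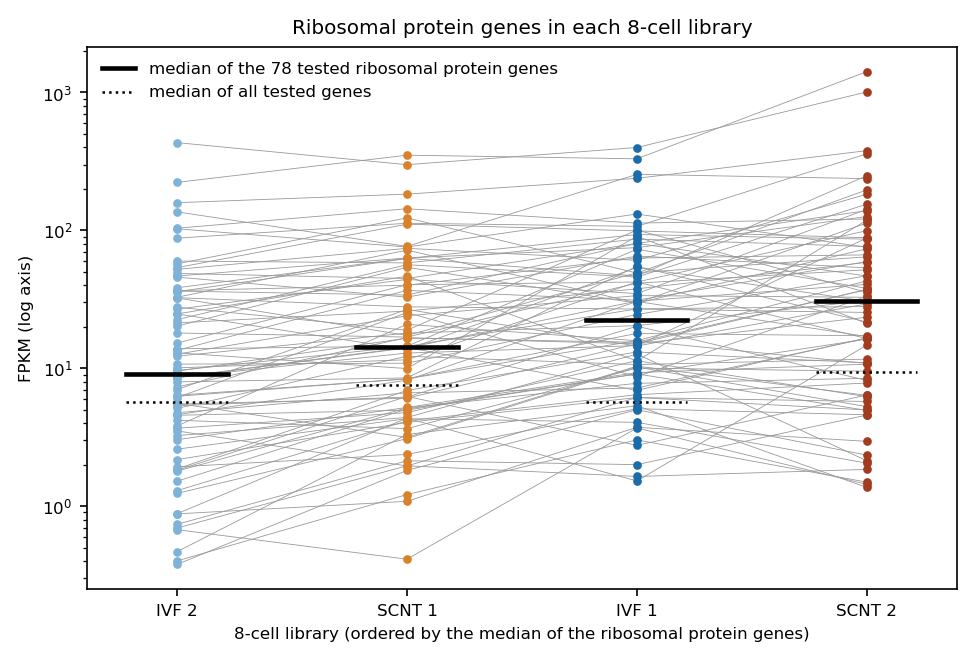
Level of each of the 78 tested ribosomal protein genes (dots, FPKM on a log axis) in the 4 libraries of 8-cell embryos, with lines joining the same gene, a solid bar at their median and a dotted bar at the median of all 10303 tested genes. The solid bar climbs from 9.06 FPKM in IVF replicate 2 to 30.8 FPKM in SCNT replicate 2, with SCNT replicate 1 and IVF replicate 1 between them.

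The family took a small share of each library. Its summed level was 3673 and 2306 FPKM in IVF replicates 1 and 2 and 2820 and 6746 FPKM in SCNT replicates 1 and 2. As a share of all FPKM, this was 0.884% and 0.591% for IVF and 0.741% and 1.58% for SCNT. SCNT replicate 2 held the largest share, and SCNT replicate 1 lay between the 2 IVF libraries. With 2 libraries a group, a two-sided exact permutation test cannot give a p below 0.33, so none was run. In whole reads, the family drew 84362 and 64856 reads in IVF and 76000 and 180741 reads in SCNT.

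A few genes carried much of this sum. RPSA, a small-subunit protein also known as the laminin receptor, and RPLP0, the base of the stalk that recruits elongation factors, together made up 19.9% and 28.4% of the family's FPKM after IVF and 23.1% and 36.0% in SCNT. Without these, the family's share of the table was 0.709% and 0.423% in IVF and 0.570% and 1.01% in SCNT, in the same order of libraries. RPSA stood at 330.3 and 222.8 FPKM in IVF replicates 1 and 2 and at 351 and 1416 FPKM in SCNT replicates 1 and 2. RPLP0 stood at 399 and 433 FPKM after IVF and at 299.5 and 1009 FPKM after SCNT. Both genes were highest in SCNT replicate 2, and RPLP0 was lowest in the other SCNT library.

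**Figure D2:**
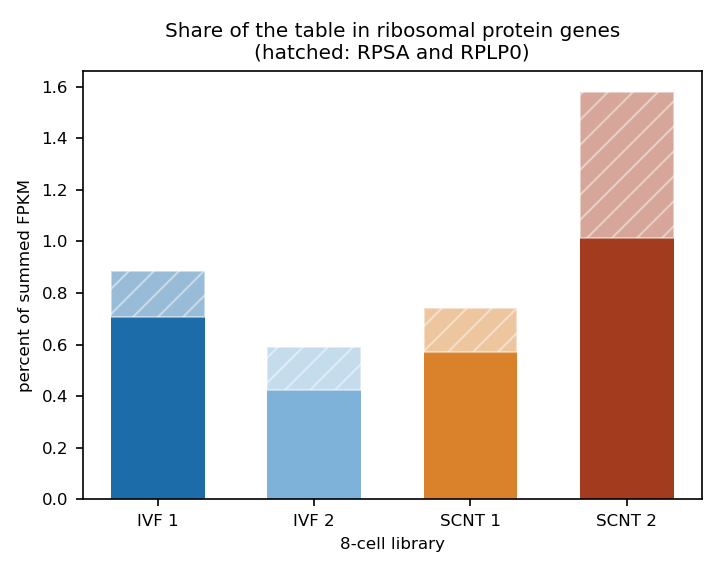
Share of the summed FPKM of each 8-cell library held by the 79 ribosomal protein genes, in percent, with RPSA and RPLP0 hatched on top of the other genes. The bars reach 0.884% and 0.591% in IVF and 0.741% and 1.58% in SCNT.

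The messages were far from equal in level, although most of the proteins join the ribosome in equal numbers. Within SCNT replicate 2 they ran from 1.37 to 1416 FPKM, with quartiles at 8.73 and 76.1 FPKM. In IVF replicate 2 they ran from 0.378 to 433 FPKM, with quartiles at 3.56 and 32.5 FPKM. The order of the genes was much the same everywhere. Across the 78 genes, Spearman's rho between libraries lay between 0.826 and 0.950, a description over genes of shared libraries that are no independent replicates. SCNT replicate 1 was closer to IVF replicate 2 (0.935) than IVF replicate 1 was to IVF replicate 2 (0.918).

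After RPSA and RPLP0, the highest mean levels were those of RPS6, RPS20, RPS3 and RPL4. RPS6, the small-subunit protein phosphorylated by the S6 kinases, stood at 239 and 159 FPKM after IVF and 183 and 379 FPKM after SCNT. RPS20 stood at 255 and 136 FPKM after IVF and at 76.5 and 237 FPKM after SCNT. For both genes the groups overlapped. RPS3, which lies where the message enters the small subunit, had 107 and 87.8 FPKM after IVF and 113 and 359 FPKM after SCNT. RPL4, which lines the tunnel through which the new protein leaves, was the steadiest of the 6, at 113 and 104 FPKM after IVF and 143 and 121 FPKM after SCNT.

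At the other end stood RPL12, RPL36A, RPL28, RPL38, RPL11 and RPL39, all under 6 FPKM in every library. RPL11, a partner of the 5S ribosomal RNA that also binds the p53 regulator MDM2, stood at 2.0 and 0.738 FPKM after IVF and 2.14 and 4.58 FPKM after SCNT. RPL5, the other protein partner of the 5S RNA, stood higher in every library, at 20.2 and 5.36 FPKM after IVF and 6.18 and 8.17 FPKM after SCNT. RPL39, a very small protein of the exit tunnel, stood at 5.01 and 0.378 FPKM after IVF and 1.82 and 2.35 FPKM after SCNT. These came from 72 and 6 reads in IVF and 27 and 35 in SCNT, and the 6 reads carry an exact Poisson 95% interval of 0.139 to 0.823 FPKM, which covers counting error only. RPL12, which sits near the stalk, stood at 1.64 and 0.695 FPKM after IVF and 1.96 and 1.85 FPKM after SCNT. RPL38, known for its part in the translation of Hox messages in the mouse, had 3.73 and 0.880 FPKM after IVF and 1.08 and 2.95 FPKM after SCNT.

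Replicates of a group lay far apart in this family, and in opposite directions in the 2 groups. Gaps are given as replicate 2 minus replicate 1 of log2(FPKM + 1), which understates ratios at low levels. In IVF the median gap was −0.95, and 72 of the 78 genes were lower in replicate 2. In SCNT the median gap was 0.83, and 68 of 78 were higher in replicate 2. Over all tested genes the median gaps were 0.06 in IVF and 0.25 in SCNT, with 44.1% of genes lower in IVF replicate 2 and 60.7% higher in SCNT replicate 2. This difference from all genes was not tested.

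The widest gaps belonged to different genes in the 2 groups. RPS29, a zinc-binding protein of the small-subunit head and the shortest message of the family, had 90.7 FPKM in IVF replicate 1 and 12.9 FPKM in IVF replicate 2, a gap of −2.72. RPS28 came next with 54.9 and 7.97 FPKM (−2.64). The gap of RPS27A, made as a fusion with ubiquitin, was also wide, from 73.0 to 13.8 FPKM (−2.32). In SCNT, RPSA (2.01), the paralog gene RPL26L1 (2.01) and RPS14 (1.97) were among the genes with the widest gaps. RPL27 (−0.01), RPL21 (−0.01), RPL13 (0.03) and RPL12 (−0.06) differed least between the SCNT libraries. RPL3, a protein of the peptidyl transferase centre, went against the family in IVF, with 11.3 FPKM in replicate 1 and 24.8 FPKM in replicate 2.

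**Figure D3:**
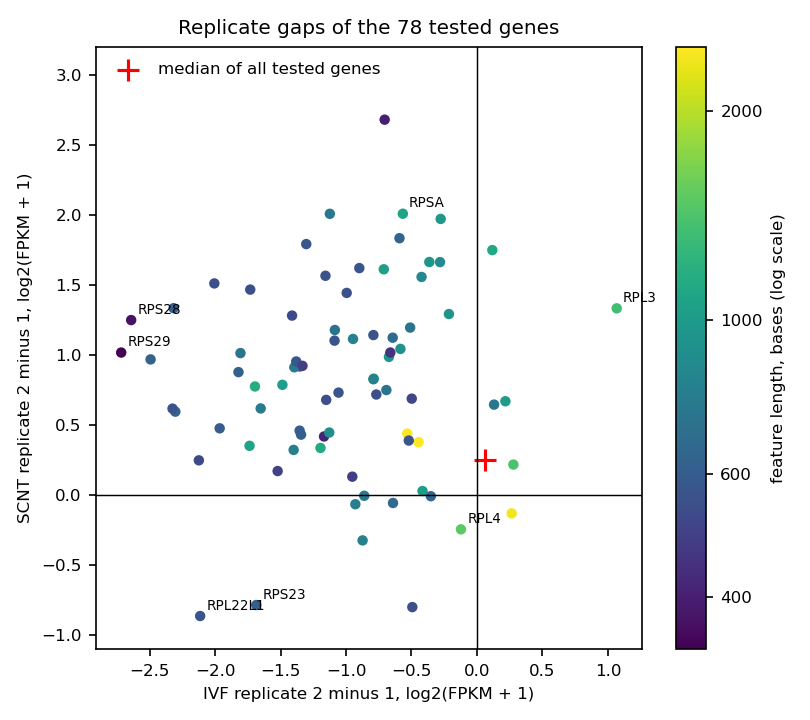
Gap between replicates of log2(FPKM + 1) for the 78 tested ribosomal protein genes, IVF on the horizontal and SCNT on the vertical axis, coloured by feature length in bases, with a red cross at the median of all tested genes. Most points lie in the upper left, lower in IVF replicate 2 and higher in SCNT replicate 2, and RPS29 and RPS28 mark the left edge.

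Feature length moved with the IVF gap. The 27 genes under 600 bases had a median IVF gap of −1.16, the 35 genes from 600 to under 1000 bases −0.93 and the 16 genes of 1000 bases and over −0.49. All tested genes of the same length classes showed the same order at smaller size, at −0.36 (448 genes), −0.20 (772 genes) and 0.08 (9078 genes). In SCNT the 3 classes of ribosomal protein genes had median gaps of 0.95, 0.91 and 0.55, and those of all tested genes 0.55, 0.70 and 0.20. Across the 78 genes, Spearman's rho of length with the gap was 0.474 in IVF and −0.067 in SCNT. Over 10298 tested genes it was 0.199 in IVF and −0.299 in SCNT. These values describe genes measured in shared libraries. The part of length in these gaps was not tested.

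The comparison between groups asked which ribosomal protein messages differ between SCNT and fertilised 8-cell embryos. None of the 78 passed in limma at an adjusted p of 0.05 over all genes, against 398 of 10303 genes (3.86%), 3.02% higher and 0.844% lower in SCNT. By limma voom on the recovered reads 1 of 78 passed (1.28%, against 5.37% of all genes), RPL7L1. It was also the 1 gene that passed with a pseudocount of 0.5 FPKM, against 5.61% of all genes. After rescaling to a common total 4 passed (5.13%, against 12.9% of all genes). At an unadjusted p under 0.05, 12 were higher in SCNT and 0 lower, which is 15.4% of the family, against 31.1% of all genes, 25.4% higher and 5.63% lower. The median log2 difference, SCNT minus IVF, was 0.38 over the family and 0.39 over all tested genes. Of the 78 genes 52 lay above 0 (66.7%), against 65.8% of all genes. The groups did not overlap, with SCNT the higher, for 23 genes (29.5%, against 46.9% of all genes) and, with SCNT the lower, for 1 gene (1.28%, against 17.1%). Median centring moved the median of all genes to −0.10 and that of the family to −0.11, with 31 genes above and 47 below 0. The calls over all genes, 311 higher and 87 lower, then became 158 and 238, and 121 and 150 after quantile normalization.

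The family's median depended on which libraries were set against each other. SCNT replicate 1 minus IVF replicate 1 gave a median of −0.56, with 26 of 78 genes above 0. SCNT replicate 2 minus IVF replicate 2 gave a median of 1.33, with 74 of 78 above 0. The other pairings gave 0.53 for SCNT replicate 1 against IVF replicate 2 and 0.11 for SCNT replicate 2 against IVF replicate 1. Over all tested genes the 4 pairings stayed between 0.30 and 0.51. Left out one at a time, the libraries moved the family's median from −0.26 without IVF replicate 2 to 0.91 without IVF replicate 1, and it was −0.04 without SCNT replicate 2. Without SCNT replicate 1 it was 0.71, and 16 of 78 genes passed (20.5%, against 37.2% of all genes), with a spread that came from the IVF pair and was assumed to hold for the lone SCNT library.

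**Figure D4:**
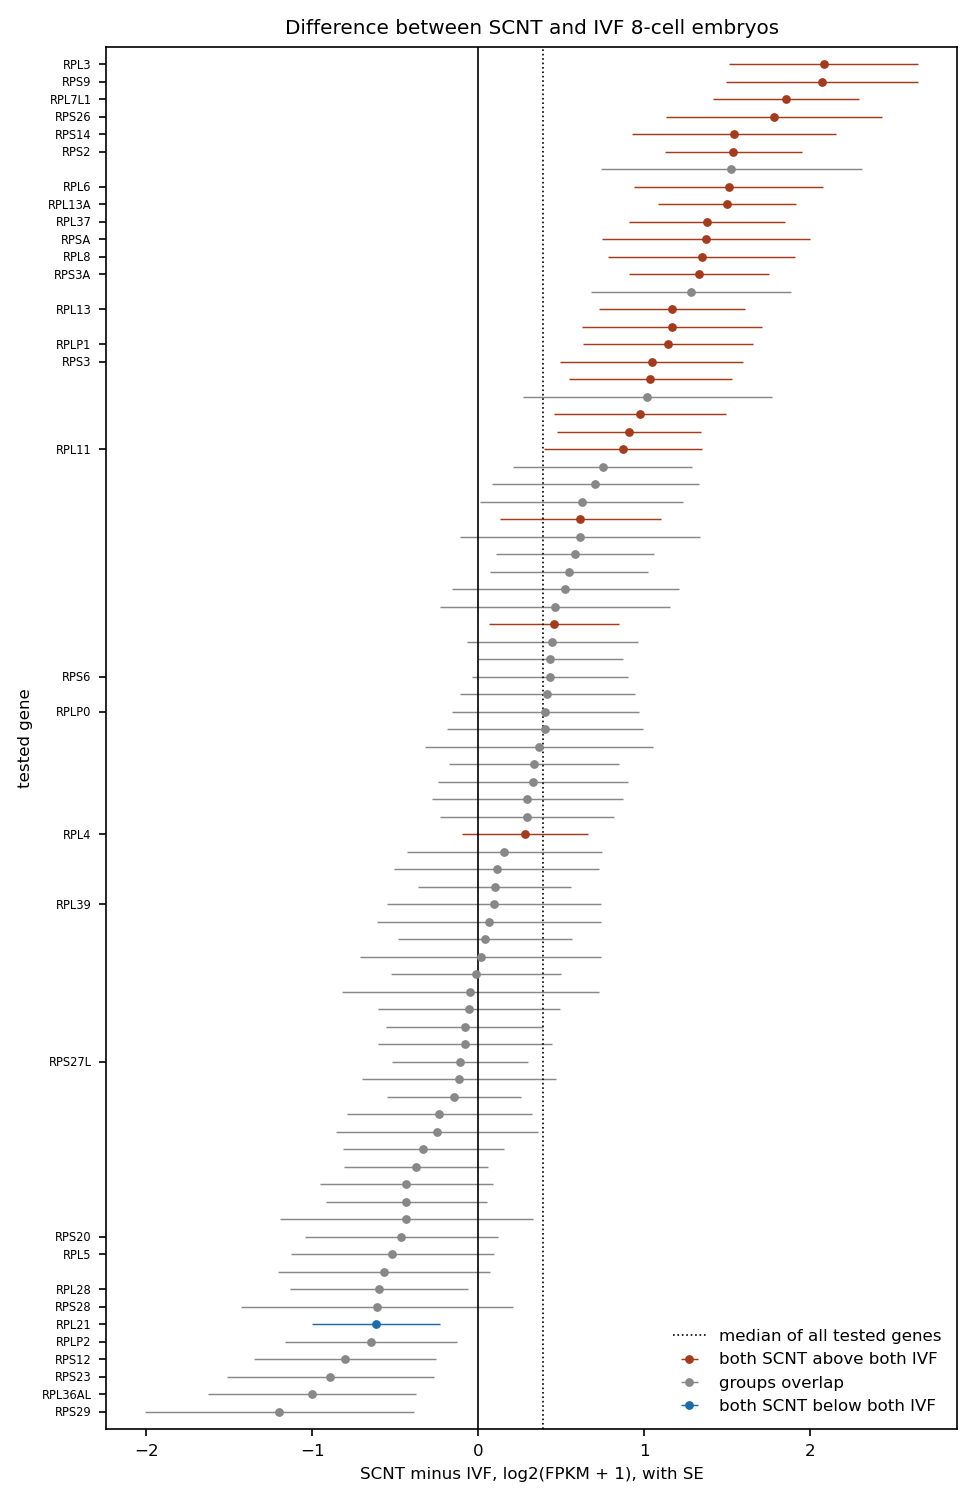
Log2 difference of SCNT minus IVF 8-cell embryos, on log2(FPKM + 1), with its standard error for the 78 tested ribosomal protein genes in order of size, with names for some of them. Red marks the 23 genes with both SCNT values above both IVF values, blue the single gene with both below, and the dotted line is the median of all tested genes at 0.39.

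The largest differences included those of RPL3, RPS9, RPL7L1, RPS26, RPS14, RPS2 and RPL6. RPL3 stood at 46.5 and 119 FPKM after SCNT against 11.3 and 24.8 FPKM after IVF, a log2 difference of 2.08 ± 0.57 (SE) with a limma adjusted p of 0.0654. RPS9 stood at 4.35 and 14.7 FPKM against 1.52 and 0.882 FPKM (2.07 ± 0.58, limma adjusted p = 0.0667). RPS2, a core protein of the small subunit near the decoding site, stood at 123 and 197 FPKM against 49.0 and 57.2 FPKM (1.54 ± 0.41, limma adjusted p = 0.0643). In each of these, both SCNT libraries were higher than both IVF libraries, and none passed. RPL3, RPS9 and RPS2 passed once the libraries were rescaled to a common total, with limma adjusted p-values of 0.0378, 0.0309 and 0.0455, and missed the threshold by more after median centring (0.111, 0.10 and 0.159).

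RPS26, which contacts the message at its exit from the small subunit, stood at 20.8 and 43.1 FPKM after SCNT and at 15.8 and 3.82 FPKM after IVF (1.78 ± 0.65). RPS14, whose loss on one chromosome underlies the anaemia of the 5q- syndrome, stood at 62.8 and 249 FPKM after SCNT and 46.7 and 38.4 FPKM after IVF (1.54 ± 0.61). RPL6 stood at 56.3 and 155 FPKM after SCNT and 45.9 and 22.5 FPKM after IVF (1.51 ± 0.57). In these 3 genes all SCNT values exceeded all IVF values, and SCNT replicate 1 lay nearer to IVF replicate 1 than to SCNT replicate 2.

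The other genes at an unadjusted p under 0.05 were RPL13A, RPS3A, RPL13, RPL37 and RPL8. RPL13A, also part of a complex that silences inflammatory messages, had 71.9 and 113 FPKM after SCNT and 29.8 and 32.7 FPKM after IVF (1.5 ± 0.41, limma adjusted p = 0.0660). RPS3A had 54.0 and 73.6 FPKM after SCNT and 29.7 and 20.2 FPKM after IVF (1.33 ± 0.42, limma adjusted p = 0.0839). In both genes the groups did not overlap. RPL13 stood at 6.25 and 6.40 FPKM against 2.76 and 1.82 FPKM, and RPL37 at 26.7 and 29.3 FPKM against 14.5 and 7.01 FPKM. RPL8 stood at 44.1 and 142 FPKM against 34.8 and 26.8 FPKM, and its limma adjusted p was 0.148. All 5 were higher in both SCNT libraries than in either IVF library, and none passed.

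At the low end, the 8 genes were RPS29, RPL36AL, RPS23, RPS12, RPLP2, RPL21, RPS28 and RPL28, from −1.20 ± 0.81 (SE) for RPS29 to −0.60 for RPL28. RPS29 stood at 9.96 and 21.2 FPKM after SCNT, within the IVF range of 12.9 to 90.7 FPKM at one value and below it at the other. RPS28 stood at 8.52 and 21.6 FPKM after SCNT against 54.9 and 7.97 FPKM after IVF. RPS12 stood at 13.7 and 30.6 FPKM against 53.8 and 24.8 FPKM, and RPS23, a decoding-site protein, at 4.4 and 2.13 FPKM against 12.7 and 3.25 FPKM. In these 4 genes IVF replicate 1 was the highest library, and IVF replicate 2 lay between the SCNT libraries or below both. Without IVF replicate 1 the differences of RPS29 and RPS28 turned positive, at 0.16 and 0.71. RPL21 was the single gene with both SCNT values (75.8 and 75.3 FPKM) below both IVF values (131 and 103 FPKM), and its log2 difference of −0.61 ± 0.38 had a limma adjusted p of 0.302. RPL28 had 0.413 and 1.44 FPKM after SCNT and 3.69 and 0.676 FPKM after IVF.

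By subunit, the 46 tested large-subunit and the 32 small-subunit genes had median differences of 0.38 and 0.36. At an unadjusted p under 0.05, 7 large-subunit and 5 small-subunit genes were higher in SCNT and 0 of either lower. These are 15.2% and 15.6% of the subunits, against 25.4% of all genes higher and 5.63% lower. The median replicate gaps were −0.95 and −1.01 in IVF and 0.68 and 1.03 in SCNT. IVF replicate 2 had the lowest median level in both subunits, at 6.64 and 11.5 FPKM. The highest was SCNT replicate 2 for the large subunit (24.4 FPKM, against 15.1 FPKM in IVF replicate 1) and IVF replicate 1 for the small subunit (41.8 FPKM, against 39.3 FPKM in SCNT replicate 2). In the stalk, RPLP1 stood at 36.7 and 59.4 FPKM after SCNT against 31.2 and 13.5 FPKM after IVF, and RPLP2, its partner in the stalk dimer, at 3.15 and 6.37 FPKM against 10.4 and 5.57 FPKM. RPLP1, RPLP2 and RPLP0 had log2 differences of 1.14, −0.64 and 0.40, none of which passed, and that of RPLP0 was −0.09 after median centring.

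Among 7 tested genes whose proteins line or surround the exit tunnel, 6 had a log2 difference above 0, from 0.01 to 0.62, and RPL31 lay at −0.37. The 19 ribosomal protein genes linked to Diamond-Blackfan anaemia, an inherited failure of red cell production, had a median difference of 0.01, with 10 above and 9 below 0. Of the 19, RPS26 alone was at an unadjusted p under 0.05 (5.26%, higher in SCNT, against 25.4% of all genes). None passed, against 3.86% of all genes. Their median gap in IVF was −1.70.

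Paralogs were the minor message in some pairs and the main one in others. RPL7L1, related to a yeast factor that builds the large subunit, stood at 25.4 and 33.2 FPKM after SCNT against 8.69 and 6.11 FPKM after IVF, while RPL7 stood at 34.0 and 46.7 against 80.5 and 36.3 FPKM. RPL7L1 thus made up 42.7% and 41.6% of the FPKM of the pair in SCNT, and 9.74% and 14.4% in IVF. Its log2 difference of 1.86 ± 0.44 had the smallest adjusted p of the family, 0.0535 in limma. It passed with a pseudocount of 0.5 FPKM (0.0487), after rescaling (0.0303) and in limma voom on the recovered reads (0.0448). It did not after median centring (0.105) or quantile normalization (0.104). It also failed with a pseudocount of 0.1 FPKM, eBayes without trend, a mean of 5 FPKM or more, and no filter. The family's smallest limma adjusted p in these settings was 0.0531, 0.0558, 0.0639 and 0.242, in that order. The share itself was not tested.

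In the other pairs the shares of the groups overlapped or lay close together. RPS27L, a paralog induced by p53, made up 93.0% to 96.5% of its pair with RPS27 in the 4 libraries, at 58.1 to 86.4 FPKM. RPL36AL made up 94.0% to 98.6% of its pair with RPL36A, with 101 and 27.7 FPKM after IVF and 18.9 and 35.5 FPKM after SCNT, against 0.401 to 3.02 FPKM for RPL36A. In both pairs the paralog message was thus the main one in every library. RPL26L1 made up 65.1% and 85.2% of its pair with RPL26 in IVF and 61.2% and 81.0% in SCNT. RPL22L1 made up 56.9% and 15.3% of its pair with RPL22 in IVF and 43.4% and 40.0% in SCNT, and in IVF replicate 2 its 0.467 FPKM rested on 8 reads. Near-identical gene copies can take reads from one another, and how the authors' counting treated such reads is not given in the sources used here.

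**Figure D5:**
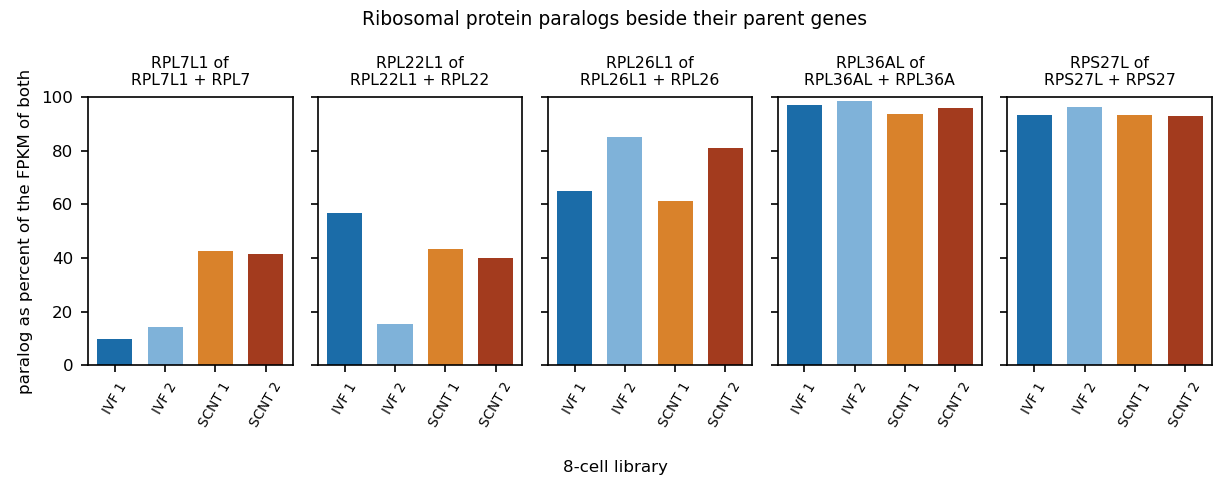
Level of each paralog as a percent of the summed FPKM of the paralog and its parent gene in the 4 libraries of 8-cell embryos. RPL7L1 makes up 42.7% and 41.6% of its pair in SCNT against 9.74% and 14.4% in IVF, and RPS27L and RPL36AL stand above 93% of theirs in every library.

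Genes of the ribosome that the naming rule leaves out did not move together either. FAU, the source of RPS30, stood at 31.3 and 89.2 FPKM after SCNT against 256 and 76.8 FPKM after IVF (log2 difference −1.39 ± 0.67). RACK1, a signalling scaffold on the small subunit, stood at 70.4 and 223 FPKM against 33.3 and 15.7 FPKM (2.40 ± 0.61), higher in both SCNT libraries. Their limma adjusted p-values were 0.194 for FAU and 0.0591 for RACK1. The entry named RPL37A stood at 8.34 and 8.80 FPKM after SCNT and 8.24 and 5.4 FPKM after IVF.

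Other TOP messages, a list that includes FAU and RACK1, had 1 of 24 tested genes passing (4.17%, against 3.86% of all genes). This was the elongation factor gene EEF2, which rose from 2.34 and 2.05 FPKM after IVF to 14.8 and 29.8 FPKM after SCNT (log2 difference 2.79, limma adjusted p = 0.0350). Its call was lost without either IVF library or SCNT replicate 2 (limma adjusted p of 0.0727 to 0.0833), and with no filter on low values (0.242). The list's median difference was 0.45, and its median gaps were −0.18 in IVF, with 79.2% of its genes lower in replicate 2, and 0.31 in SCNT. EEF1A1, the factor that brings aminoacyl-tRNA to the ribosome, had 115 and 257 FPKM after SCNT and 124 and 72.4 FPKM after IVF, with overlapping groups. Of 14 tested genes of the mTORC1 and LARP1 axis none passed, and 4 were at an unadjusted p under 0.05, all higher in SCNT (28.6%, against 25.4% of all genes). Of these 4, EIF4G1 was under 1 FPKM in both IVF libraries and entered the test through SCNT alone. LARP1, the protein that binds TOP messages, stood at 10.7 and 17.8 FPKM after SCNT against 2.94 and 4.03 FPKM after IVF (1.74, limma adjusted p = 0.0652), and it passed in limma voom (0.0448), after rescaling (0.0405) and without SCNT replicate 1 (0.0222). It did not after median centring (0.127) or quantile normalization (0.147), nor without IVF replicate 1 (0.481), IVF replicate 2 (0.230) or SCNT replicate 2 (0.133).

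A mixed list held chaperones of ribosomal proteins, ribosome assembly factors and other proteins, among them ZPR1 and AAR2. Of its 15 tested genes, 3 rose in SCNT (20%, against 3.02% of all genes) and 0 fell (against 0.844%). ZPR1 rose from 8.60 and 4.86 to 31.4 and 66.3 FPKM (log2 difference 2.64, limma adjusted p = 0.0405). ZNF622, a late maturation factor of the large subunit, rose from 2.13 and 2.26 to 11.2 and 23.1 FPKM (2.42, limma adjusted p = 0.0445), and AAMP from 0.217 and 0.0895 to 2.08 and 4.57 FPKM (1.85, limma adjusted p = 0.0476). All 3 calls were lost without IVF replicate 2 or SCNT replicate 2 (limma adjusted p of 0.0860 to 0.120), after quantile normalization (0.0551 to 0.0701) and with no filter (0.242). Those of ZNF622 and AAMP were also lost without IVF replicate 1 (0.168 and 0.0963) and after median centring (0.0519 and 0.0605), that of AAMP without a trend in eBayes (0.0624), and those of ZPR1 and ZNF622 at a mean of 5 FPKM or more (0.0547 and 0.0623). AAMP was under 1 FPKM in both IVF libraries, so it entered the test through SCNT alone and could only be called higher there. The median difference of this list was 1.37. RNA polymerase I genes, which make the ribosomal RNA precursor, had a median of 0.85 over 14 tested genes, with 0 passing and 5 higher and 2 lower at an unadjusted p under 0.05 (35.7% and 14.3%, against 25.4% and 5.63%). Of the 5 higher genes, POLR1A, POLR2E and TAF1C were under 1 FPKM in both IVF libraries and likewise entered the test through SCNT alone. The median IVF gaps of the 2 lists were 0.10 and −0.10.

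The mitochondrial ribosomal protein genes offer the nearest comparison by function. Of 68 tested, 2 rose in SCNT and 0 fell, which is 2.94% against 3.02% of all genes higher. These were MRPL12 (log2 difference 2.40, limma adjusted p = 0.0342) and MRPL37 (2.30, limma adjusted p = 0.0463). MRPL12 had 0.661 and 0 FPKM after IVF and 5.55 and 6.08 FPKM after SCNT. It thus entered the test through SCNT alone and could only be called higher there. The list had a median difference of 0.86 and 40 genes whose SCNT values all exceeded their IVF values (58.8%, against 46.9% of all genes). Their median gap was −0.10 in IVF, against −0.95 for the cytosolic genes, and 0.72 in SCNT, against 0.83. Translation initiation and elongation factor genes had 4 of 57 that rose (7.02%, against 3.02%), 0 that fell, a median difference of 0.69 and gaps of −0.03 in IVF and 0.47 in SCNT. Beside EEF2, those that rose were EIF5A (3.35, limma adjusted p = 0.0223), EIF3G (2.56, limma adjusted p = 0.0366) and EIF4E1B, an egg-type cap-binding factor (2.21, limma adjusted p = 0.0425). All the calls of both lists were lost without SCNT replicate 2 (limma adjusted p of 0.0670 to 0.0850) and with no filter (0.242). MRPL12 was also lost without IVF replicate 2 (0.145), and MRPL37, EIF3G and EIF4E1B without either IVF library (0.0845 to 0.170). MRPL37 and EIF4E1B were lost after median centring (0.0626 and 0.0629) and at a mean of 5 FPKM or more (0.0656 and 0.0623), EIF3G and EIF4E1B after quantile normalization (0.0502 and 0.0507), and MRPL37 without a trend in eBayes (0.0554). In IVF replicate 2, 64.7% of the mitochondrial ribosomal protein genes and 54.4% of the translation factor genes were lower than in replicate 1, against 92.3% of the cytosolic genes and 44.1% of all genes. No test of the difference between lists was made.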

How the data were processed

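Polyadenylated RNA of goat embryos was profiled with Smart-seq2, per the labels' protocols. The authors deposited FPKM per gene for 4 libraries of 8-cell embryos. HISAT2 2.2.1, HTSeq and fastp are listed, with no role stated, per the submitters' processing notes. For genome build and annotation: not given in the sources used here. Library totals were recovered from features under 400 bases with a RefSeq length, and reads as the smallest length giving whole reads within 0.001 read in each library, found for 20283 of 20289 entries above 0.

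Genes that reached 1 FPKM in 2 libraries or more were tested on log2(FPKM + 1) with limma 3.58.1 in R 4.3.3 (lmFit, eBayes with trend), two-sided, with Benjamini-Hochberg adjustment over all 10303 genes and a threshold of 0.05. Groups were taken from sample titles. The fit was tested on data simulated for 2 against 2 libraries, with 200 of 10303 genes changed. It called 0% of log2 changes of 1, 58.5% of changes of 2, 92.5% of 3 and 99% of 4. The genes, lists and tests were chosen with earlier results of these data known. Named genes were the 8 highest and 8 lowest differences, the 6 highest and 6 lowest levels, the 4 widest and 4 narrowest SCNT gaps, up to 10 genes at an unadjusted p under 0.05, and a fixed set of paralog, stalk and 5S genes. Some genes that this rule takes are not reported here. RPL31, RPL7, RPL8, RPS19BP1, the S6 kinase genes and the genes named from comparison and marker lists were chosen after their values were seen. Alternatives covered pseudocount, filter, scaling, trend, replicate block and each library left out. A fit with limma voom on the recovered reads was added after seeing the data. No RefSeq coordinates were used, since the files' build is unknown; of 22107 names, 22065 matched RefSeq.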

Additional observations from a re-analysis of the deposited data

How the results depend on the processing

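Ribosomal protein genes that passed, 0 as reported, numbered 1 with a pseudocount of 0.5 FPKM, 1 in limma voom on the recovered reads and 4 after rescaling to a total of 1000000 (RPL3, RPS9, RPS2, RPL7L1). Leaving out single libraries gave 0 to 16, with 16 only without SCNT replicate 1. Calls over all genes, 398 as reported, were 77 at a mean of 5 FPKM or more, 0 with no filter (3661 at an unadjusted p under 0.05 in limma), 1327 after rescaling and 46 to 3834 without single libraries. The same numbers label IVF and SCNT libraries without a stated pairing, and replicate differences of the groups correlated at 0.12 over 10303 genes. With the replicate number as a block, 1924 genes (18.7%) and 5 ribosomal protein genes (6.41%) passed (the 4 above and RPL13A). The family's median difference, 0.38 as reported, changed sign after median centring (−0.11), without IVF replicate 2 (−0.26) and without SCNT replicate 2 (−0.04). Its genes above 0, 52 of 78 as reported, numbered 31 after median centring and 40 after quantile normalization. Among genes named in the text, the log2 difference turned negative after median centring for RPL12 (−0.037), RPL22L1 (−0.43), RPL26L1 (−0.030), RPL37A (−0.18), RPL39 (−0.40), RPL4 (−0.21), RPLP0 (−0.090) and RPS6 (−0.059). After quantile normalization it did so, among named genes, for RPL12 (−0.044), RPL22L1 (−0.40), RPL37A (−0.18) and RPL39 (−0.42). RPL36A turned positive with pseudocounts of 0.1 (0.21) and 0.5 FPKM (0.053), after rescaling (0.084) and in voom (0.29), as did RPL38 in voom (0.0029). With single libraries left out, these genes ranged across 0: RPL22L1 from −0.99 to 1.12, RPL26L1 from −0.54 to 1.47, RPL27 from −0.76 to 0.10, RPL28 from −1.34 to 0.15, RPL36A from −0.78 to 0.75, RPL38 from −0.72 to 0.61, RPL39 from −0.97 to 1.16, RPL5 from −1.39 to 0.35, RPL7 from −1.0 to 0.13, RPLP0 from −0.47 to 1.28, RPS20 from −1.27 to 0.35, RPS27A from −1.59 to 0.73, RPS27L from −0.37 to 0.15, RPS28 from −1.93 to 0.71, RPS29 from −2.56 to 0.16 and RPS6 from −0.088 to 0.96. The cause was not tested. With 2 libraries a group, and as few as 6 reads behind a gene, the number of libraries and the depth of low genes limit these values.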

Other observations

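The genes whose names resemble those of the ribosomal proteins, but which encode other proteins, showed values of their own. RPS6KA6, one of the RSK family of kinases activated by ERK, had 27.3 and 26.9 FPKM after IVF and 13.0 and 3.23 FPKM after SCNT, a log2 difference of −1.87 with a limma adjusted p of 0.0830. RPS6KB1, the kinase that phosphorylates RPS6 under mTORC1, had 7.48 and 6.98 FPKM after IVF and 13.6 and 16.6 FPKM after SCNT (0.96, limma adjusted p = 0.171). RPS19BP1, a nucleolar partner of RPS19, had 2.69 and 2.28 FPKM after IVF and 11.7 and 12.9 FPKM after SCNT (1.94, limma adjusted p = 0.0501). None of the 3 passed, and the groups did not overlap in any of them. RPS19BP1 passed with a pseudocount of 0.5 FPKM (limma adjusted p = 0.0452) and did not under median centring or quantile normalization, over an adjusted p range of 0.0147 to 0.295 across its alternatives. RPS6KB2, RPS6KL1 and RPS6KA4 stayed under 1 FPKM in every library.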
